A study of Mus musculus with 12 samples.

Results

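The 9 genes described here encode enzymes that turn acetyl-CoA into squalene and into the branch product geranylgeranyl diphosphate: *Acat2*, *Hmgcs1*, *Mvk*, *Pmvk*, *Mvd*, *Idi1*, *Fdps*, *Fdft1* and *Ggps1*. They were taken by name from the gene count matrix of the series, which lists 24453 genes, and all 9 passed the filter on low counts that left 14026 genes for testing. The list is not the whole pathway. It was measured by RNA-Seq in 12 libraries, 3 from each of 4 lines of C57BL6/J mouse embryonic fibroblasts (MEFs). TM6 is the parental line, SV-40 large T-antigen immortalized and homozygous for a *loxP*-flanked *Pnpt1* (fl/fl), the gene for the mitochondrial exoribonuclease PNPase. The rho0 line came from TM6 cells given 750 ng/mL ditercalinium for 3 weeks to remove mitochondrial DNA (mtDNA), then from a single colony, and it keeps its floxed *Pnpt1*. PKO-1 and PKO-6 are clones 1 and 6 of TM6 cells infected with an adenovirus carrying Cre recombinase, which deletes exon 2 of *Pnpt1*. The study describes both clones as having lost mtDNA too, so the clones against TM6 do not separate loss of PNPase from loss of mtDNA. The clones against rho0 differ in PNPase, but also in ditercalinium, Cre and colony. Content of mtDNA was not analysed here. All 4 lines, TM6 included, were grown with 50 µg/mL uridine and 10% fetal bovine serum, so none of the comparisons tests uridine or serum. Each derived line is 1 colony, and its 3 libraries are cultures of that colony. The p-values between lines therefore measure the spread between cultures and not between independent colonies.

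The mevalonate pathway builds 5-carbon isoprene units from acetyl-CoA and joins them into farnesyl diphosphate, the branch point of the route. Squalene synthase joins farnesyl diphosphate into squalene, the first committed precursor of cholesterol, while other enzymes use it to make geranylgeranyl diphosphate, dolichol, ubiquinone and lipid anchors of proteins. Transcription of most genes of the sterol route is driven by SREBP-2, a membrane-bound factor that is cut free and enters the nucleus when sterols are low. NF-Y, which binds CCAAT boxes, is a common partner of SREBP-2 on these promoters.

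Promoter sequences of 3 genes are shown first. *Hmgcs1* had the lowest counts relative to TM6 in PKO-6 (12.2%), nearly level with *Fdps* (12.3%), for which no window was found. *Mvk* was chosen by its letters, with the most CCAAT matches, and not by its counts. *Ggps1* was the only member that was not lower than TM6 in rho0 or PKO-6. RefSeq windows on GRCm38.p6, running from 250 bases before to 50 bases after an annotated start, were found for 7 of the 9 genes. The windows printed are chr13:119690101-119690400 on the + strand for *Hmgcs1*, chr5:114444019-114444318 on the + strand for *Mvk* and chr13:14063439-14063738 on the - strand for *Ggps1*, each written 5′ to 3′ along the gene. Capitals mark CCAAT, the NF-Y box, on either strand (read as ATTGG on the other), and in *Hmgcs1* also TCACCCCAC, a match to TCACNCCAC, a core of the sterol regulatory element bound by SREBP.
Hmgcs1: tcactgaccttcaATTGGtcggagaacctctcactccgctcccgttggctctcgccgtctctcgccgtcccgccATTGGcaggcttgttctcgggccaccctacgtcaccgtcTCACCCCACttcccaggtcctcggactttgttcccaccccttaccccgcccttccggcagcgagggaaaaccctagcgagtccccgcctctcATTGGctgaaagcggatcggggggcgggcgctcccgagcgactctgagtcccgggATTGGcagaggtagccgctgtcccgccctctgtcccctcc
Mvk: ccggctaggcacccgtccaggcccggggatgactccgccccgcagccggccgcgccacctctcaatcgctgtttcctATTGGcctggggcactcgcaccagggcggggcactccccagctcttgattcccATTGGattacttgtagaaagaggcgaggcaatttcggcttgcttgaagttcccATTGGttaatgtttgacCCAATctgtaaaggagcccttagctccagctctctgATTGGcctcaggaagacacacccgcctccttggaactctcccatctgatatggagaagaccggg
Ggps1: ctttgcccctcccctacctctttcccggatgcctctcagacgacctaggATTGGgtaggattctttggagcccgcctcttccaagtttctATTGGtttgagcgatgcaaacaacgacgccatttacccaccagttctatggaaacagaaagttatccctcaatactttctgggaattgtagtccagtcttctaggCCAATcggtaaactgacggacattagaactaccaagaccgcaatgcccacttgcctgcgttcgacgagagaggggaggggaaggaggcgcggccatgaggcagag

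TCACNCCAC, searched on both strands, was present in 408 of 32851 RefSeq promoter windows (1.24%), and of the 7 genes with a window only *Hmgcs1* held it, with its first base at position -137 (the start being 1). CCAAT was present in 37.4% of all windows and at least 2 times in 11.7%. *Mvk* held 5 matches, *Hmgcs1* 4, *Ggps1* 3, and *Mvd* and *Idi1* 2 each, with no overlap between the 2 motifs in *Hmgcs1*. *Pmvk*, which has 2 annotated windows, held 1 match in one and 0 in the other, and *Acat2* held 0. The *Ggps1* window starts from a RefSeq start 87 bases upstream of the transcript start used for the counts. A match is a description of letters and not a measured binding site.

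The libraries held 47164832 to 67991336 counts, of which the ribosomal RNA precursor *Rn45s* took 12.2% to 19.6%. *Pnpt1*, which stays in the count table because only exon 2 is deleted, had 2832, 3242 and 3320 normalized counts in the TM6 libraries, 1254, 1191 and 1276 in PKO-1, 1897, 1720 and 2214 in PKO-6, and 5051, 5251 and 5510 in rho0. Both clones were below TM6 in every library (log2 fold change -1.34 in PKO-1 and -0.69 in PKO-6), and rho0 was above it (0.75). Of 8 fibroblast markers, *Col1a1*, *Col1a2*, *Vim* and *Fn1* were abundant in every line, whereas *Thy1* was near 0 throughout (0 to 5 normalized counts). The abundant markers also differed between lines: *Col1a1* was at log2 fold changes of -1.56 in rho0, -0.89 in PKO-1 and -2.25 in PKO-6. In the same order, *Col1a2* was at -0.49, -0.07 and -1.28, *Vim* at -0.57, -0.07 and -0.84, and *Fn1* at 1.07, 1.19 and 0.88. The remaining 3 were *Col3a1* at -3.32, 0.56 and -3.86, *Pdgfra* at -2.06, 3.24 and 0.28, and *Pdgfrb* at -1.46, -1.22 and -2.18. The summed fibroblast markers were 514166 to 564146 in TM6, 446227 to 497971 in rho0, 579557 to 629034 in PKO-1 and 347958 to 387628 in PKO-6. The summed 16 markers of epithelial, endothelial, blood and muscle cells were 490 to 511 in PKO-6 and 144 to 225 in the other lines, with *Krt5*, *Cd3e* and *Myog* at 0 in all libraries. In PKO-6, *Epcam* (77 to 105 normalized counts against 3 to 6 in TM6), *Kdr*, *Cd68* and *Des* were called higher. *Des* was called higher in PKO-1 as well (log2 fold change 2.35, beside 2.15 in PKO-6). *Kdr* was called lower in rho0 (-2.10) and PKO-1 (-1.32). The part of these markers in the results was not tested. Within lines, rho0 replicate 1 and PKO-6 replicate 3 stood apart from their partners. Replicate 1 of rho0 had the highest normalized counts of its line for 8 of the 9 genes, and replicate 3 of PKO-6 the lowest for 6 of them, so the members' calls resting on these libraries are given with and without them.

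Counts of 8 of the 9 genes were lower in every derived line than in TM6, and *Ggps1* was the exception (plot of normalized counts by library). A gene was called different when edgeR's quasi-likelihood test gave a Benjamini-Hochberg adjusted p below 0.01 with an absolute log2 fold change above 0.5. These are the thresholds of the study's methods, which applied them to moderated fold changes from DESeq2. The numbers of calls are therefore not comparable with those of the study. In rho0, 8 members were called lower, where 21.4% of all tested genes were. In PKO-1, 8 members were called lower, beside 17.9% of all tested genes, and in PKO-6 8 members, beside 19.4%. The 8 called genes were the same in each line, and all TM6 libraries lay above all libraries of the other line for each of them, as 37%, 35% and 35.1% of tested genes did in rho0, PKO-1 and PKO-6. They were 2.92 to 5.43 times lower than TM6 in rho0, 2.90 to 6.06 times lower in PKO-1 and 3.53 to 8.21 times lower in PKO-6. The median log2 fold change of these 8 genes was -2.20 in rho0, -1.91 in PKO-1 and -2.28 in PKO-6, while the median over all tested genes was 0.018, 0.00086 and 0.014. All 3 comparisons share the TM6 libraries, so the likeness of their values is in part that of the reference. In bulk RNA, fewer cells expressing a gene and less RNA per cell cannot be told apart.

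**Figure D1:**
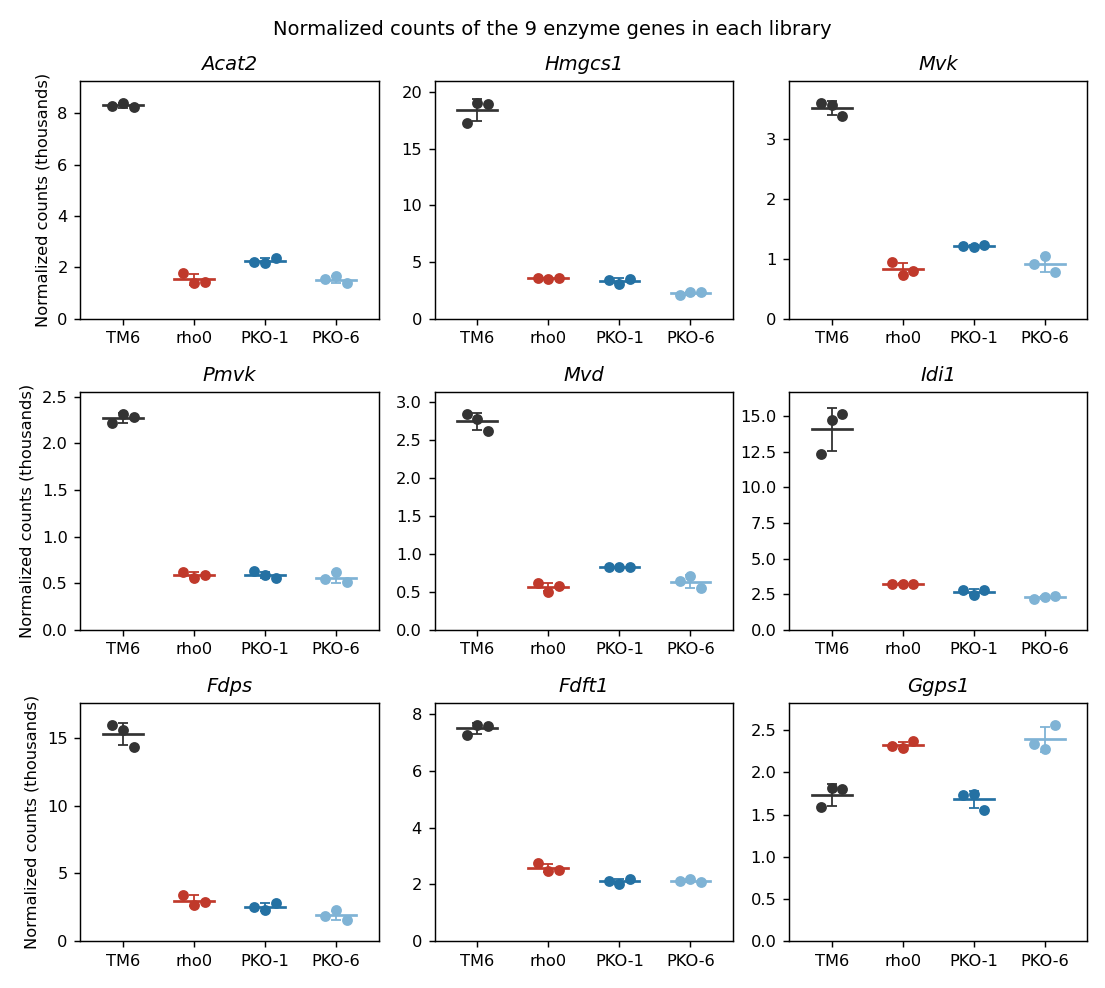
Normalized counts (in units of 1000, linear axes from 0) of the 9 genes in the 12 libraries; points are libraries, horizontal lines are means and bars are the SD (n = 3 per line). For 8 genes every TM6 library lies above every library of the other lines, whereas *Ggps1* lies at 1559 to 1814 in TM6 and PKO-1 and at 2282 to 2564 in rho0 and PKO-6.

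*Acat2* (chr17:12943042-12960725, - strand, 9 exons, mm10) encodes the cytosolic acetyl-CoA acetyltransferase that joins acetyl-CoA into acetoacetyl-CoA. It had 8272, 8409 and 8238 normalized counts in the TM6 libraries, 1762, 1402 and 1420 in rho0, 2217, 2184 and 2365 in PKO-1 and 1535, 1653 and 1384 in PKO-6. Every TM6 library was above every other library, and PKO-1 lay above rho0 and PKO-6 without overlap. The log2 fold change against TM6 was -2.44 (SE 0.09) in rho0, -1.88 (SE 0.08) in PKO-1 and -2.45 (SE 0.09) in PKO-6. *Acat3*, a near copy in the same chromosome region (chr17:12923959-12940396) that could share reads with *Acat2*, had 27 to 132 normalized counts in any library and was called in none of the lines.

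*Hmgcs1* (chr13:119690351-119708260, + strand, 10 or 11 exons) encodes the cytosolic synthase that makes hydroxymethylglutaryl-CoA, the substrate of the rate-limiting step of the route. It had 17272, 19055 and 18934 normalized counts in the TM6 libraries, 3571, 3525 and 3549 in rho0, 3388, 3099 and 3539 in PKO-1 and 2093, 2310 and 2326 in PKO-6. No TM6 library came near the others, rho0 and PKO-1 overlapped, and PKO-6 was the lowest line. Against TM6 the log2 fold change was -2.38 (SE 0.06) in rho0, -2.46 (SE 0.06) in PKO-1 and -3.04 (SE 0.07) in PKO-6. *Hmgcs1* was thus at 12.2% of its TM6 mean in PKO-6, against 18.1% in PKO-1 and 19.3% in rho0.

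The next 3 genes act on mevalonate. *Mvk* (chr5:114444269-114460590, + strand, 11 exons) encodes mevalonate kinase, and its normalized counts were 3607, 3571 and 3382 in TM6, 938, 736 and 801 in rho0, 1215, 1196 and 1232 in PKO-1, and 917, 1052 and 781 in PKO-6. TM6 was highest, PKO-1 lay above rho0 and PKO-6, and the last 2 overlapped. Its log2 fold change was -2.09 (SE 0.10) in rho0, -1.54 (SE 0.10) in PKO-1 and -1.94 (SE 0.10) in PKO-6. *Pmvk* (chr3:89454541-89469009, + strand, 4 or 5 exons) encodes phosphomevalonate kinase, and its normalized counts were 2216, 2318 and 2282 in TM6, 615, 558 and 586 in rho0, 626, 587 and 558 in PKO-1, and 543, 622 and 510 in PKO-6. Its 3 derived lines overlapped one another, all far below TM6. The log2 fold change of *Pmvk* was -1.95 (SE 0.08) in rho0, -1.94 (SE 0.08) in PKO-1 and -2.03 (SE 0.08) in PKO-6.

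*Mvd* (chr8:122433596-122443422, - strand, 10 or 11 exons) encodes mevalonate diphosphate decarboxylase, which yields isopentenyl diphosphate, the isoprene unit itself. It had 2846, 2771 and 2622 normalized counts in the TM6 libraries, 616, 504 and 571 in rho0, 831, 822 and 830 in PKO-1 and 637, 714 and 544 in PKO-6. PKO-1 was above every rho0 and PKO-6 library, and rho0 and PKO-6 overlapped. On the log2 scale the change was -2.28 (SE 0.09) in rho0, -1.73 (SE 0.09) in PKO-1 and -2.12 (SE 0.09) in PKO-6.

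*Idi1* (chr13:8885606-8892396, + strand, 5 exons) encodes isopentenyl diphosphate isomerase, which makes dimethylallyl diphosphate, the starter of chain growth. It had 12334, 14719 and 15170 normalized counts in the TM6 libraries, 3248, 3193 and 3235 in rho0, 2781, 2413 and 2780 in PKO-1 and 2152, 2323 and 2373 in PKO-6. The 4 lines formed 4 ranges without overlap, in the order TM6, rho0, PKO-1, PKO-6. Against TM6 the log2 fold change was -2.13 (SE 0.08) in rho0, -2.40 (SE 0.08) in PKO-1 and -2.62 (SE 0.08) in PKO-6.

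*Fdps* (chr3:89093588-89101967, - strand, 10 or 11 exons) encodes farnesyl diphosphate synthase, which builds the branch-point lipid. It had 15969, 15558 and 14350 normalized counts in the TM6 libraries, 3426, 2619 and 2856 in rho0, 2480, 2263 and 2827 in PKO-1 and 1851, 2258 and 1527 in PKO-6. TM6 stood far above, rho0 and PKO-1 overlapped, and the highest PKO-6 library lay just under the lowest PKO-1 library. Its log2 fold change was -2.36 (SE 0.13) in rho0, -2.60 (SE 0.13) in PKO-1 and -3.03 (SE 0.14) in PKO-6. *Fdps* had the widest spread of the 9 genes within rho0, PKO-1 and PKO-6, with a coefficient of variation of 19.5% in PKO-6.

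The last 2 genes use farnesyl diphosphate. *Fdft1* (chr14:63145151-63179578, - strand, 10 exons) encodes squalene synthase, the committed step to sterols, and its normalized counts were 7282, 7628 and 7603 in TM6, 2738, 2481 and 2501 in rho0, 2122, 1993 and 2183 in PKO-1, and 2110, 2191 and 2074 in PKO-6. The clones overlapped each other, and rho0 lay between them and TM6. The log2 fold change of *Fdft1* was -1.54 (SE 0.05) in rho0, -1.84 (SE 0.05) in PKO-1 and -1.82 (SE 0.05) in PKO-6. *Ggps1* (chr13:14052445-14063401, - strand, 4 exons) encodes geranylgeranyl diphosphate synthase, which supplies the longer isoprenoid used to anchor proteins in membranes. Its normalized counts were 1586, 1814 and 1808 in TM6, 2311, 2291 and 2371 in rho0, 1733, 1747 and 1559 in PKO-1, and 2334, 2282 and 2564 in PKO-6.

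*Ggps1* was higher than TM6 in every rho0 and PKO-6 library and overlapped TM6 in PKO-1. Its log2 fold change was 0.42 (95% interval 0.28 to 0.57, adjusted p = 6.75e-05 by edgeR) in rho0 and 0.46 (0.32 to 0.61, adjusted p = 2.64e-05) in PKO-6, both past the p threshold and below the fold threshold, so neither was called. Without rho0 replicate 1 the value in rho0 was 0.41, and without PKO-6 replicate 3 that in PKO-6 was 0.41. Against this background, 35.8% of all tested genes were higher than TM6 in every rho0 library and 36.8% in every PKO-6 library. In PKO-1 its log2 fold change was -0.05 (95% interval -0.19 to 0.10, adjusted p = 0.557). *Ggps1* lies on chromosome 13 with *Hmgcs1* and *Idi1*, and the median log2 fold change of the 558 tested genes of that chromosome was -0.27 in PKO-1, 0.04 in rho0 and 0.08 in PKO-6. With each chromosome's median removed, *Ggps1* in PKO-1 was 0.23 above TM6 (adjusted p = 0.0104) in place of -0.05, and whether DNA copy number differed between the lines was not tested.

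**Figure D2:**
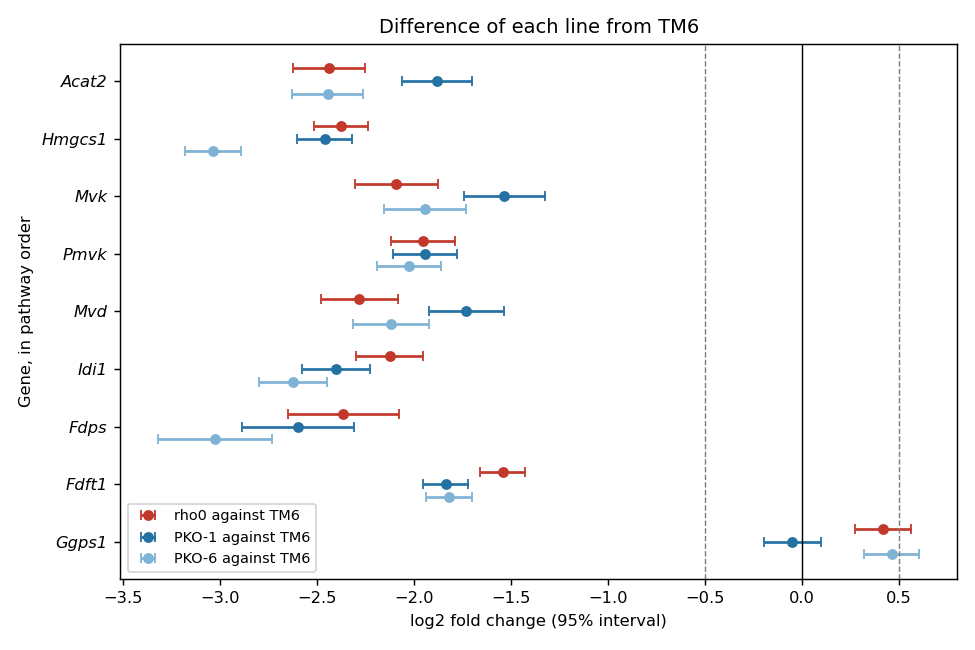
Log2 fold change against TM6 (horizontal axis) of the 9 genes in pathway order, for rho0, PKO-1 and PKO-6; points are edgeR estimates, bars are 95% intervals, and dashed lines mark the fold threshold of 0.5. The 8 genes from *Acat2* to *Fdft1* lie between -3.04 and -1.54, and *Ggps1* lies between -0.05 and 0.46.

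The study's own design pools both clones as PKO against TM6. The same pooling was fitted here with edgeR, in place of the study's DESeq2 with moderated fold changes. In this fit 8 members were called lower, where 12.2% of all tested genes were, with folds of 3.30 to 6.95. *Fdps* fell the most (log2 fold change -2.80, SE 0.16) and *Mvk* the least (-1.72, SE 0.13). *Ggps1*, which the clones carried at different levels, was 0.23 (95% interval -0.09 to 0.55, adjusted p = 0.218 by edgeR). In that fit the libraries of both clones were replicates of a single group. Its SEs and p-values therefore mix the spread between cultures with the difference between these clones. Without rho0 replicate 1, the 8 genes spanned -2.57 to -1.61 in rho0 and all 8 were still called, and without PKO-6 replicate 3 they spanned -3.06 to -1.80 in PKO-6, again with all 8 called.

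The derived lines were compared with each other. The comparisons show where members differ between rho0, which keeps its floxed *Pnpt1*, and the clones, and where the clones differ. Between the clones, 2 members were called higher in PKO-1, beside 11.5% of all tested genes, and 1 lower, beside 17.6%. *Acat2* (log2 difference 0.57, SE 0.08, adjusted p = 5.2e-05) and *Hmgcs1* (0.58, SE 0.06, adjusted p = 2.94e-06) were the higher 2, and *Ggps1* was the lower one (-0.51, SE 0.07, adjusted p = 1.66e-05). The *Ggps1* call was lost with chromosome medians removed (-0.15, adjusted p = 0.0643), without PKO-1 replicate 3 (-0.46) and without PKO-6 replicate 3 (-0.46). The median log2 difference of chromosome 13 between the clones was -0.41, and with the medians removed the other chromosome 13 members moved up, *Hmgcs1* to 0.93 (adjusted p = 2.67e-08) and *Idi1* to 0.58 (adjusted p = 2.97e-05), where *Idi1* was called. *Mvk* (0.41, adjusted p = 0.00273) and *Mvd* (0.39, adjusted p = 0.00219) were also higher in every PKO-1 library, as 33% of tested genes were, below the fold threshold, and so were *Fdps* (0.43, adjusted p = 0.0117) and *Idi1* (0.22, adjusted p = 0.0274), which missed the p threshold too. *Mvd* lies on chromosome 8, whose median was 0.30 between the clones and -0.43 in PKO-6 against TM6. With chromosome medians removed, *Mvd* was 0.08 (adjusted p = 0.499) between the clones. In PKO-6 against TM6 it was then -1.69 in place of -2.12, and still called. *Pmvk* (95% interval -0.09 to 0.25) and *Fdft1* (-0.13 to 0.10) overlapped between the clones. Without PKO-6 replicate 2, 5 members were called, with *Mvk* (0.52) and *Fdps* (0.58) added. Without PKO-6 replicate 3, *Acat2* was 0.50 and *Hmgcs1* 0.60, both called, and *Mvk* (0.31) and *Mvd* (0.30) were closer to 0.

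Against rho0, PKO-1 had 3 members called higher, beside 15.1% of all tested genes, and 0 called lower: *Acat2* (0.56, SE 0.08, adjusted p = 5.89e-05), *Mvk* (0.56, SE 0.10, adjusted p = 0.00026) and *Mvd* (0.55, SE 0.09, adjusted p = 0.000154). All of these calls were lost without rho0 replicate 2, where the log2 differences were 0.50, 0.47 and 0.47, just under the fold threshold. That library had the lowest normalized count of its line for all 9 genes. With chromosome medians removed, *Mvk* (0.25) and *Mvd* (0.49) also fell below the threshold. *Fdft1* (-0.29), *Idi1* (-0.28) and *Ggps1* (-0.47) were lower in every PKO-1 library than in every rho0 library, as 33.8% of tested genes were, at adjusted p of 0.00032, 0.00691 and 3.77e-05, without reaching the fold threshold. With chromosome medians removed, *Fdft1* was -0.28 (adjusted p = 0.000469), *Ggps1* was -0.16 (adjusted p = 0.0571) and *Idi1* changed sign to 0.03 (adjusted p = 0.721). Without rho0 replicate 1 the 3 called genes were at 0.66 for *Acat2*, 0.64 for *Mvk* and 0.61 for *Mvd*, all called.

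PKO-6 against rho0 had 2 members called lower, beside 8.16% of all tested genes, and 0 called higher. *Hmgcs1* (-0.66, SE 0.06, adjusted p = 1.28e-06) and *Fdps* (-0.66, SE 0.13, adjusted p = 0.000775) were lower in PKO-6. Both stayed called without rho0 replicate 1 (-0.68 and -0.57) and without PKO-6 replicate 3 (-0.69 and -0.53). *Idi1* was close to the fold threshold (-0.499, adjusted p = 0.000134) and was called in 11 of 20 alternative settings. *Fdft1* and *Idi1* were lower in every PKO-6 library, as 26.8% of tested genes were (*Fdft1* -0.28, adjusted p = 0.000707). For *Acat2* (95% interval -0.19 to 0.18), *Mvk* (-0.07 to 0.37), *Pmvk* (-0.24 to 0.09), *Mvd* (-0.04 to 0.36) and *Ggps1* (-0.10 to 0.18) the lines overlapped. With chromosome medians removed, *Mvd* was 0.41 (adjusted p = 0.00263 by edgeR) and *Pmvk* -0.30 (adjusted p = 0.00556), both below the fold threshold. *Hmgcs1* was then -0.71 and *Fdps* -0.89, both still called. With all libraries kept and no chromosome medians removed, the largest log2 difference in size among the derived lines was -0.66, beside 1.54 to 3.04 for the 8 lowered genes against TM6.

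**Figure D3:**
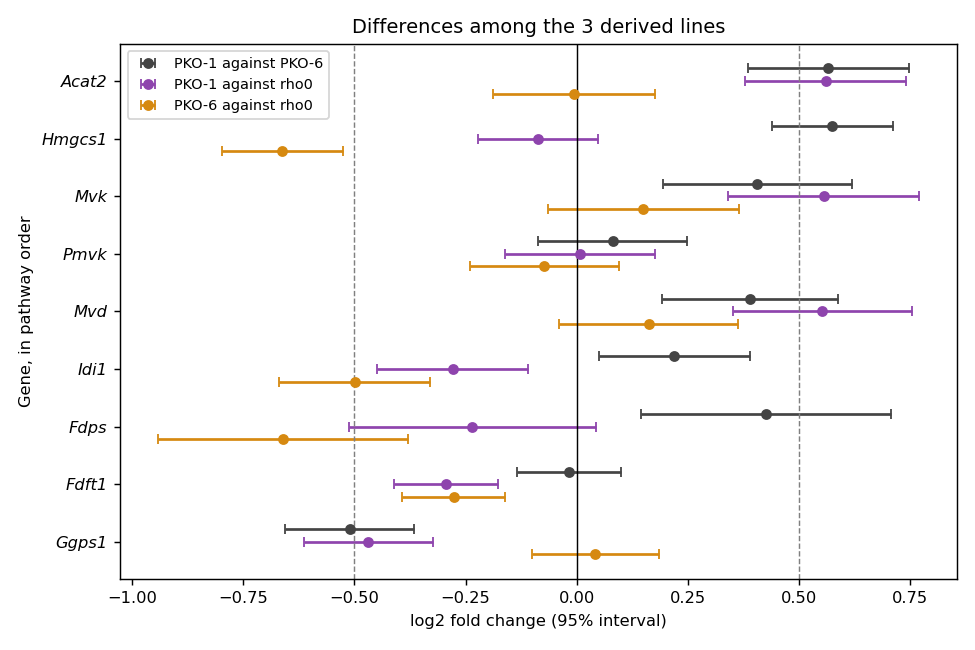
Log2 difference (horizontal axis) of the 9 genes for PKO-1 against PKO-6, PKO-1 against rho0 and PKO-6 against rho0; points are edgeR estimates, bars are 95% intervals and dashed lines mark the fold threshold of 0.5. The estimates lie between -0.66 and 0.58, and those of *Pmvk* lie closest to 0 across the 3 comparisons.

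Levels of different genes were compared in TPM, a transcript abundance scaled for transcript length and library size. In TM6, *Fdps* had the highest level (430 ± 22.3 TPM, SD, n = 3), followed by *Hmgcs1* (166 ± 8.28) and *Idi1* (159 ± 16.8), whose libraries overlapped. *Acat2* (133 ± 0.34), *Mvk* (69.9 ± 2.18), *Pmvk* (68.5 ± 1.41), *Fdft1* (64.7 ± 1.40) and *Mvd* (52.7 ± 2.08) came next, where *Mvk* and *Pmvk* overlapped. *Ggps1* was the lowest (24.0 ± 1.72). *Fdps* stayed the highest in every line, at 81.9 ± 5.11 TPM in rho0, 68.4 ± 10.4 in PKO-1 and 50.6 ± 6.68 in PKO-6. *Ggps1*, last of the 9 in TM6, ranked 3 in rho0 (31.8 ± 2.44), 6 in PKO-1 (22.2 ± 0.67) and 2 in PKO-6 (32.0 ± 4.21), overlapping *Hmgcs1* and *Idi1* in rho0 and *Mvk* in PKO-1. *Mvd* was the lowest in each of the derived lines (10.6 to 15.2 TPM on average).

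**Figure D4:**
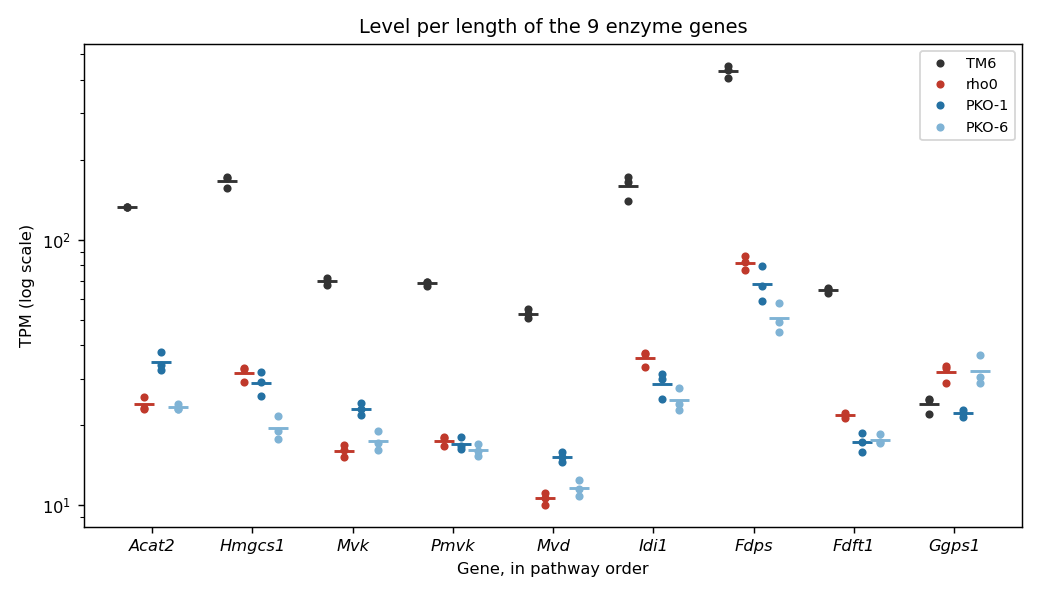
TPM on a log axis of the 9 genes in pathway order; points are libraries and short lines are means of the 3 libraries of a line. TM6 lies above the other lines for 8 genes, and the level of *Ggps1*, lowest of the TM6 values at 24.0, averages 22.2 to 32.0 in all lines.

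The balance of the 2 users of farnesyl diphosphate was described after their values were seen, and carries no test. The ratio of *Fdft1* to *Ggps1* in TPM was 2.86, 2.62 and 2.62 in TM6, 0.74, 0.67 and 0.66 in rho0, 0.76, 0.71 and 0.87 in PKO-1 and 0.56, 0.60 and 0.50 in PKO-6. Squalene synthase transcripts outnumbered those of geranylgeranyl diphosphate synthase in all TM6 libraries and were fewer in every other library.

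**Figure D5:**
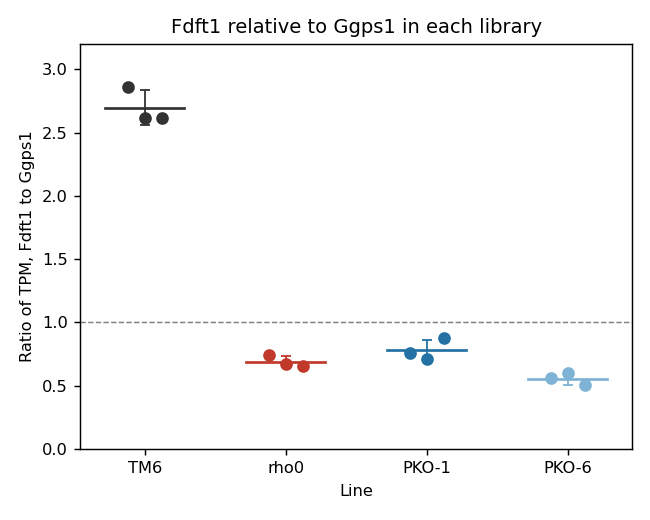
Ratio of *Fdft1* to *Ggps1* TPM (vertical axis, from 0) in the 12 libraries; points are libraries, lines are means, bars are the SD (n = 3) and the dashed line marks equal levels. TM6 lies at 2.62 to 2.86 and the derived lines lie at 0.50 to 0.87.

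Transcript estimates of the members with more than 1 transcript showed no change of main form. For *Fdps*, NM_134469.4 held 93.0% to 94.8% on average in each line. For *Mvd*, the coding NM_138656.2 held 96.9% to 99.4%, and the noncoding NR_028354.1 was 3.09% ± 0.36 in rho0 against 0.70% ± 0.23 in TM6. The level of NR_028354.1 overlapped between these lines, at 0.30 to 0.34 TPM in rho0 and 0.24 to 0.44 TPM in TM6. Its share in rho0 rested on 14 to 21 estimated counts per library and a lower coding form. For *Hmgcs1*, NM_001291439.1 held 63.3% to 69.1%, and for *Mvk*, NM_023556.3 held 61.4% to 69.9%. These shares are RSEM's estimates, and the lines overlapped for *Hmgcs1*. For *Mvk*, the share of NM_023556.3 was 66.5% to 74.8% in rho0, above the 60.0% to 64.8% of TM6. For *Fdps*, NM_134469.4 was at 94.7% to 94.9% in PKO-1, above the 92.2% to 93.7% of TM6. These differences of share were not tested. *Pmvk* kept NM_026784.3 as its main form (88.6% to 96.8% on average), with a wide spread in rho0 (74.3% to 98.4%).

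Neighbouring genes were read beside the members, because the strand setting of the counting was not given in the sources used here. *Ctsb*, which encodes a lysosomal protease, overlaps *Fdft1* by 773 exonic bases on the opposite strand and had 19349, 19280 and 18525 normalized counts in TM6. *Ctsb* was called lower in rho0 (-0.65) and was not called in PKO-1 (0.29) or PKO-6 (-0.16). *Mmab*, a cobalamin adenosyltransferase gene that starts 242 bases from *Mvk* on the opposite strand, was not called in any line (0.04 in rho0, -0.18 in PKO-1 and 0.07 in PKO-6) while *Mvk* fell in all 3. *Arid4b*, 383 bases from *Ggps1*, was at -0.10, -0.32 and -0.31, and was not called. The noncoding 9330133O14Rik, 234 bases from *Mvd*, was at 0.01 in rho0, was called higher in PKO-1 (0.53) and was called lower in PKO-6 (-0.63).

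Genes around the 9 members were taken from lists of the pathway. Of 12 enzymes that act after squalene, 11 were called lower in rho0, 10 in PKO-1 and 11 in PKO-6, beside 21.4%, 17.9% and 19.4% of all tested genes, and none was called higher. The median log2 fold change of that list was -2.17, -2.16 and -2.12, beside medians of 0.018, 0.00086 and 0.014 over all tested genes. *Nsdhl* (-2.87, -2.85 and -3.39 in rho0, PKO-1 and PKO-6) and *Cyp51* (-2.79, -2.78 and -3.38), which act in removing methyl groups from lanosterol, had the largest changes in rho0. *Ebp*, a sterol isomerase gene, was at -2.44, -1.80 and -2.02, and *Dhcr7*, for the last reduction to cholesterol, was at -2.41, -2.42 and -2.44. The genes that were not called, named after their values were seen, were *Tm7sf2* (-0.30 in rho0, -0.02 in PKO-1 and -0.50 in PKO-6), a sterol reductase gene, and *Lbr* in PKO-1 (-0.43).

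The branch that uses farnesyl and geranylgeranyl diphosphate for other products was counted in both directions. Of 12 genes, 1 was called lower and 2 higher in rho0, 0 lower and 1 higher in PKO-1, and 2 lower and 4 higher in PKO-6, beside 21.4%, 17.9% and 19.4% of all tested genes called lower and 20.7%, 16.4% and 21.9% called higher. The list medians were 0.15, -0.07 and 0.16. *Fntb*, the beta subunit of farnesyltransferase, was called higher in all 3 lines (0.61, 0.54 and 0.63), whereas *Fnta*, the alpha subunit shared by 2 prenyltransferases, was called lower in rho0 (-0.59) and PKO-6 (-1.11) and was at -0.36 in PKO-1. *Pggt1b*, the beta subunit of a geranylgeranyl transferase, was called higher in rho0 (0.85) and PKO-6 (0.54) and was at 0.45 in PKO-1. *Coq2*, which attaches the isoprenoid tail of ubiquinone, was called higher in PKO-6 (0.70) and was at 0.498 in rho0 and PKO-1. The other calls in PKO-6, named after their values were seen, were those of the tail synthase subunits *Pdss1* (-0.62) and *Pdss2* (0.84).

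Upstream of *Acat2*, the 3 genes of acetyl-CoA supply were called lower in 2, 2 and 3 cases in rho0, PKO-1 and PKO-6, beside 21.4%, 17.9% and 19.4% of all tested genes. *Acss2*, an acetate-activating enzyme, was at -1.30, -0.67 and -0.98 and *Acly*, ATP citrate lyase, at -0.69, -0.51 and -1.07, all called. *Slc25a1*, the citrate carrier, was called in PKO-6 (-0.71) and was at -0.30 in rho0 and -0.50 in PKO-1. Among 3 tested paralogs of the members, *Acat1*, the mitochondrial thiolase gene, was called lower in PKO-1 (-0.71) and PKO-6 (-0.70) and was at -0.32 in rho0. *Idi2* was not called in any line.

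Among 7 genes of SREBP processing, 4 were called lower in each derived line, beside 21.4%, 17.9% and 19.4% of all tested genes in rho0, PKO-1 and PKO-6, and 0 higher. *Srebf2*, the gene of SREBP-2, had 27143, 25639 and 23872 normalized counts in the TM6 libraries, 12709, 10243 and 10853 in rho0, 7042, 7204 and 7683 in PKO-1 and 8169, 9167 and 6714 in PKO-6. Every TM6 library was above all others, and the rho0 libraries were above those of both clones. Its log2 fold change was -1.18 (SE 0.10), -1.81 (SE 0.11) and -1.67 (SE 0.11). *Insig1*, which encodes a membrane protein that retains SREBP in the endoplasmic reticulum and is itself an SREBP target, was at -1.91, -2.21 and -2.64. *Srebf1* was at -0.59, -0.92 and -1.14, all called. *Insig2* was called lower in rho0 (-0.86) and PKO-6 (-0.69) and was at -0.02 in PKO-1, where the fourth call was that of *Scap* (-0.77), named after its value was seen.

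The members' shared pattern was described by the mean, over the 9 genes, of their centred log2 CPM (counts scaled for library size) in the 12 libraries. Each of the 8 lowered members correlated with the mean of the others at 0.963 to 0.995 (Pearson's r over 12 libraries of 4 lines), and *Ggps1* at -0.579. The 12 points are 3 TM6 libraries and 9 libraries of the derived lines, and share the scaling of the libraries. Of 11152 genes outside the lists with at least 100 normalized counts on average, the 5 most like the mean pattern were *Elovl6* (0.998), a fatty acid elongase gene, *Tuba1a* (0.996), an alpha tubulin gene, *Sept11* (0.996), a septin gene, *Pitx1* (0.996), a homeobox gene, and *Aacs* (0.996), for the acetoacetyl-CoA synthetase of the cytosol. Their levels differed in how far they moved. *Sept11* had log2 fold changes of -0.77 to -0.89 across the 3 lines, *Aacs* -1.14 to -1.24, *Elovl6* -1.76 to -2.04 and *Tuba1a* -2.08 to -2.41. *Pitx1* had 476 to 514 normalized counts in TM6 and at most 1 count in any library of the other lines, so it met the minimum of 100 only through TM6.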

How the data were processed

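The authors removed ribosomal RNA, prepared stranded libraries as technical duplicates whose reads were merged, and estimated expression with RSEM 1.2.25 (bowtie2) against RefSeq transcripts of mm10. The authors deposited expected counts per gene (not normalized), and per library and transcript expected counts and TPM. The strand option was not given in the sources used here, nor which libraries were extracted with TriZol or RNeasy.

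Expected counts were rounded (12.5% of values held decimals), and edgeR 4.0.16 (R 4.3.3) was used with filterByExpr (minimum count 10), TMM scaling and quasi-likelihood tests on 12 libraries in 4 groups by line. The pooled comparison of PKO with TM6 used 3 groups. P values were adjusted by the Benjamini-Hochberg method over 14026 genes. DESeq2 1.42.0 was an alternative. Normalized counts are counts divided by TMM-scaled library sizes at the mean library size. The script was tested on simulated data.

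The genes and lists were chosen with earlier results of these data known. Named were all 9 members, at most 4 genes per list by absolute log2 fold change in rho0, *Acat3*, *Srebf2*, neighbours starting within 1000 bases of a member or overlapping it, the 5 genes most like the members' mean, and *Pnpt1*. Motifs were searched in RefSeq windows. Same-numbered replicates were treated as pairs only in an alternative fit.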

Additional observations from a re-analysis of the deposited data

Results flagged for a closer look

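The tests between derived lines singled out 8 differences of members. *Acat2* differed from TM6 by less in PKO-1 than in PKO-6 (log2 difference 0.57) and than in rho0 (0.56). *Hmgcs1* was higher in PKO-1 than in PKO-6 (0.58), and lower in PKO-6 than in rho0 (-0.66). *Mvk* (0.56) and *Mvd* (0.55) were higher in PKO-1 than in rho0. *Fdps* was lower in PKO-6 than in rho0 (-0.66). For *Ggps1*, PKO-1 minus PKO-6 was -0.51, a difference that moved with the chromosome 13 median of -0.41. Each was a direct test between lines by edgeR, with an adjusted p below the threshold and a difference past the fold threshold of 0.5. *Hmgcs1* and *Fdps* in PKO-6 against rho0 were the furthest past it.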

How the results depend on the processing

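Against TM6, 8 members were called under all the alternatives run in each of the 4 comparisons, and 9 in rho0 and PKO-6 when the adjusted p alone was used. An absolute log2 fold change above 1 left 2944 genes called in rho0, 2274 in PKO-1, 3038 in PKO-6 and 1788 in pooled PKO against TM6, 1950 in PKO-1 against PKO-6, 2202 in PKO-1 against rho0 and 1510 in PKO-6 against rho0, with 0, 0 and 0 members called in the last 3. The adjusted p alone called 7611 genes in PKO-1 against TM6, 7014 genes and 5 members in PKO-1 against PKO-6, 7561 genes and 6 members in PKO-1 against rho0, and 5704 genes and 4 members in PKO-6 against rho0. Leaving out 1 library at a time gave 2 to 5 members in PKO-1 against PKO-6, 0 to 3 in PKO-1 against rho0 and 2 to 3 in PKO-6 against rho0. With chromosome medians removed, 1 member was called in PKO-1 against rho0. The cause of these shifts was not tested, beyond the thresholds themselves.

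Some values changed sign. With chromosome medians removed, *Ggps1* in PKO-1 against TM6 was 0.23. In PKO-1 against rho0 *Hmgcs1* was 0.23 (adjusted p = 0.00633) in place of -0.09, *Idi1* was 0.034 in place of -0.28 and *Pmvk* was -0.21. In PKO-6 against rho0 *Acat2* was 0.054, *Mvk* was -0.12 and *Ggps1* was -0.0019. *Pmvk* in PKO-1 against rho0 was -0.010 with DESeq2 size factors, -0.0058 by the DESeq2 Wald test, -0.0029 with no filter and -0.0029 with the compared groups only, where *Acat2* in PKO-6 against rho0 was 0.0037. Leaving out 1 library gave ranges of -0.14 to 0.0060 for *Ggps1* in PKO-1 against TM6, -0.044 to 0.022 for *Fdft1* in PKO-1 against PKO-6 and -0.033 to 0.052 for *Pmvk* in PKO-1 against rho0. In PKO-6 against rho0 they were -0.079 to 0.090 for *Acat2* and -0.0068 to 0.063 for *Ggps1*.

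The labels number the replicates without naming a pairing. Correlations of deviations over 18 same-number pairs ran from -0.47 to 0.42, with 8 over 0.1. Their median was 0.09, beside -0.05 for other pairs. These values cannot decide whether same-numbered cultures were handled together. With the replicate block, 3 members were called in PKO-6 against rho0 in place of 2, 5849 genes in rho0 against TM6 in place of 5902, and 3113 genes in pooled PKO against TM6 in place of 3607. The members had 504 or more normalized counts in every library, and the effect of depth on these shifts was not tested. The limits are that each derived line is 1 colony, that extraction kits and strand settings are not known per library, and that all derived lines were compared with a single parental line.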
